A study of Mus musculus with 12 samples.

Results

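The lysosomal proton pump and hydrolases were followed as 40 genes in mouse adipose tissue, in adults and aged animals with and without a scald burn. The members were a fixed list of symbols, matched through Entrez identifiers: 16 subunits of the vacuolar proton pump (V-ATPase), 10 cathepsins, 7 glycosidases and sphingolipid-degrading proteins, 4 lysosomal membrane proteins and 3 transcription factors of the TFEB family. They were 40 of 27179 identifiers in the deposited counts, and all 40 were found and passed the filter on low counts in every comparison. All mice were wild-type (WT) C57BL/6J, sampled at day 7, with 3 libraries in each of 4 groups. The groups were untreated adults, adults burned over 30% of the body surface, untreated aged mice, and aged mice burned over 20%. Burned mice were scalded in water at 98 °C for 10 s on the back, and adults for 2 s more on the belly, with buprenorphine at 0.01 to 0.5 mg/kg for pain. Age therefore goes with burn size, and adult and aged libraries were deposited in separate tables, so these cannot be told apart. The sources used here do not give the fat depot, the sex or the exact ages.

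The lysosome is the acid compartment in which cells break down protein, lipid and sugar chains. The V-ATPase acidifies it: the V1 sector in the cytosol splits ATP, and the V0 sector in the membrane passes protons inward. Cathepsins cut proteins, glycosidases remove sugars, and saposins present sphingolipids to their hydrolases. TFEB and its relatives MITF, TFEC and TFE3 bind a short DNA element, the CLEAR element, found before many lysosomal genes. Macrophages are rich in lysosomes, and in fat they take up lipid and debris from dying adipocytes.

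The libraries held 25231506 to 46531070 counts, of which the 40 genes took 0.846% to 1.12% in adults and aged controls and 1.95% to 3.24% in burned aged mice. Levels are TMM-scaled CPM, the counts of a gene relative to its library's total. Adipocyte markers, which define the labelled tissue, were present in every library (Fabp4, the fatty acid binding protein of fat cells, at 4942 to 20010 CPM). Some libraries stood apart. In Adult control 1, 7 B cell markers summed to 1395 CPM against 3.77 and 8.04 in the other adult controls, and its adipocyte markers summed to 19880 CPM against 45400 and 56040. Adult burn 1 carried skeletal muscle transcripts (8 markers at 2795 CPM in sum against 53.7 and 12.4). Aged burn 2 carried neutrophil transcripts (12 markers at 1711 CPM against 29.6 and 24.1), led by S100a9 and S100a8 at 882 and 558 CPM. The labels number the libraries without naming a mouse for each, so every p-value here reflects library-to-library spread, which may be technical.

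In aged mice burn went with a broad rise of lysosomal genes, and in adult mice with none that could be detected. Summed over the 40 genes, the level was 9669, 8703 and 9748 CPM in aged controls and 29130, 30980 and 17400 CPM in burned aged mice, 2.76 times higher on average. The sums were 8107, 10140 and 11040 CPM in untreated adults and 9400, 10300 and 12770 CPM in burned ones, a ratio of 1.11. Every burned aged library lay above every aged control, while the adult groups overlapped. In bulk tissue, fewer cells of a type and less RNA per cell cannot be told apart, and the same holds for more cells and more RNA.

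Each gene was tested with edgeR's quasi-likelihood test and called where its Benjamini-Hochberg adjusted p over all genes was at most 0.05. In aged mice 26 of the 40 genes rose, 0 fell and 14 did not pass. Of all 15132 genes tested, 13.7% rose and 3.03% fell. The members' median log2 fold change was 1.23, against -0.01 for all genes, and 38 of 40 were positive. For 31 of the 40, every burned aged library lay above every aged control, which held for 26% of all genes; for 1, Ctsf, every burned library lay below, as for 24.8% of all genes, and 8 overlapped. With total-count scaling the all-gene calls were 2718 up and 183 down in place of 2075 and 459. The count of members leaned on single libraries. It was 0 without Aged control 3, where no gene at all was called (smallest member adjusted p 0.0517, 30 members at an unadjusted p under 0.05), 5 without Aged control 1, 6 without Aged control 2, 7 without Aged burn 1 and 28 and 35 without Aged burn 2 and 3. All-gene calls moved as well. They were 551 up and 24 down without Aged control 1, 393 and 17 without Aged control 2, and 832 and 40 without Aged burn 1. Without Aged burn 2 they were 2283 and 982, and without Aged burn 3 they were 3607 and 2136. Without Aged control 3, 4227 of 15494 genes had an unadjusted p under 0.05. The members' median stayed between 0.97 and 1.44 in those fits.

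In adult mice 0 of the 40 genes were called by edgeR, and 0 had an unadjusted p under 0.05, beside 638 of all 14600 genes. DESeq2 and limma-voom also called 0. All genes gave 0.0411% up (6 of 14600) and 0% down. The members' median log2 fold change was 0.08 (all genes -0.04; 25 of 40 positive), and -0.12 under total-count scaling. For all 40 the burned and control adult libraries overlapped, whereas 6.66% of all genes had every burned library above every control and 3.47% every one below.

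The gap between the responses of aged and adult mice (log2, aged less adult) was tested directly. It was called for 18 of 40 genes, each with the larger response in aged mice, and 0 smaller; of all 15553 genes 9.64% were larger and 2.22% smaller. The median difference was 1.05, against 0.05 for all genes. All 18 were among the 26 that rose in aged mice. The other 8 of the 26 were Atp6v0a1, Atp6v0b, Atp6v0d2, Atp6v1c1, Ctsd, Ctsk, Ctsl and Mitf. This count fell to 0 without Adult burn 1, Adult burn 2, Aged control 2 or Aged control 3, to 3 without Aged control 1, to 9 without Aged burn 1 or Aged burn 2, to 10 without Adult burn 3 and to 11 without Adult control 3. All-gene calls, larger and smaller, were 1500 and 345 with all libraries. They were 322 and 32 without Aged control 1, 652 and 67 without Aged burn 1, and 685 and 126 without Aged burn 2. They were 818 and 97 without Adult burn 3, and 1811 and 692 without Adult control 3. In the fits with 0 members, no gene at all was called. There 22 to 25 members, and 4273 to 4561 of 15913 to 15937 genes, had an unadjusted p under 0.05. The members' median was 0.99 to 1.06.

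**Figure D1:**
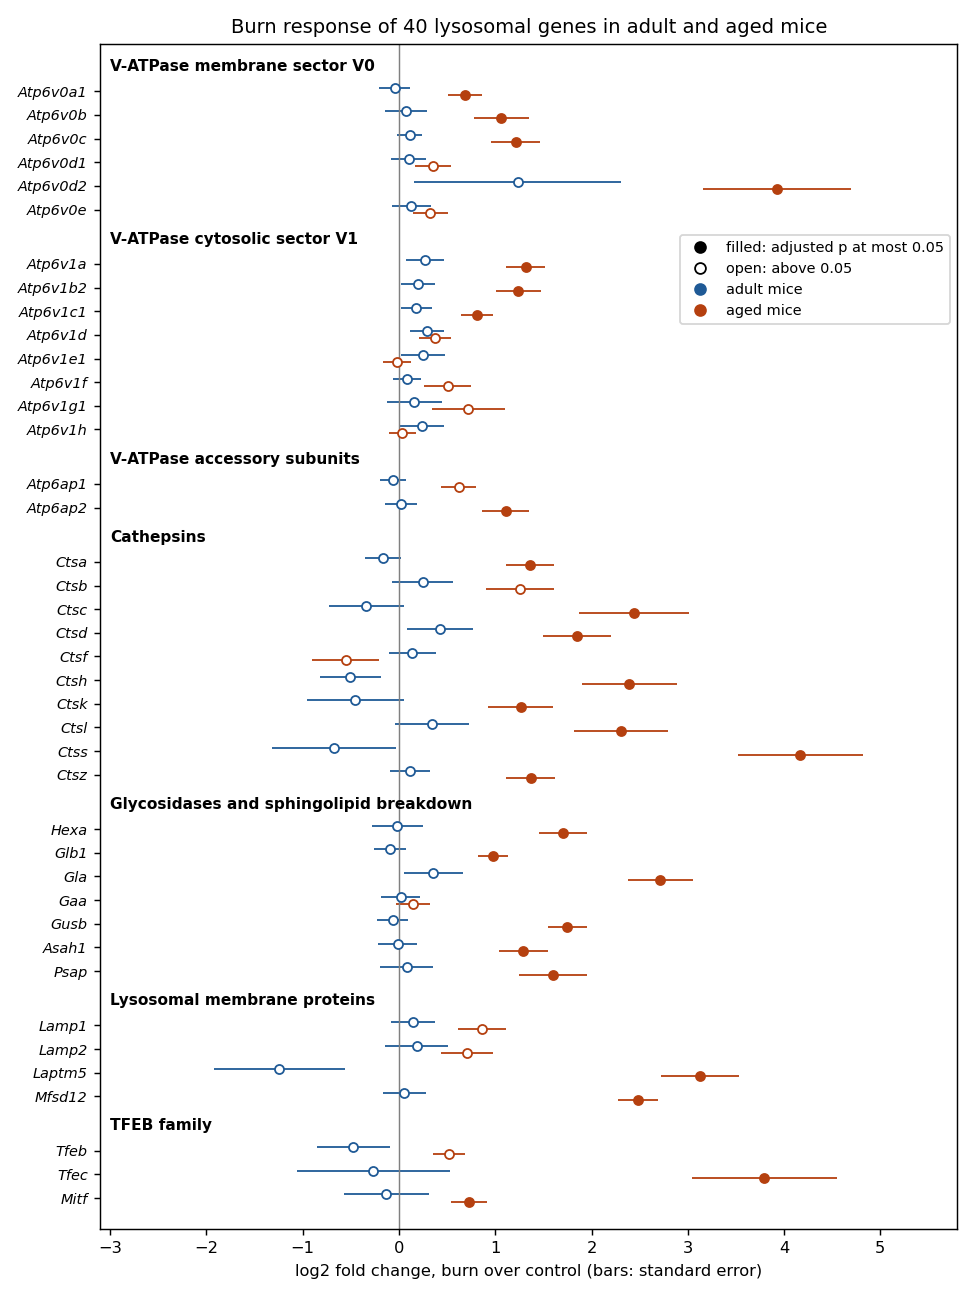
Log2 fold change of burn over control (x axis, bars 1 standard error) for the 40 genes by role, in adult (blue) and aged mice (orange), 3 libraries per group; filled points had an edgeR adjusted p of at most 0.05. The aged points are filled for 26 genes and lie right of 0 for 38, and no adult point is filled.

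Promoter sequence was examined because the CLEAR element links these genes to the TFEB family. In RefSeq promoter windows (GRCm38.p6; 250 bases before to 50 after a start; 32 of the 40 genes had one), the core TCACGTGA was in 6 genes, 18.8% of those with a window, against 1.12% of all 27025 genes. The shorter E-box CACGTG, which lies within the core, was in 12, 37.5% against 8.09%. Both motifs read the same on either strand. The core members were Atp6v0d1, Atp6v0e, Atp6v1a, Ctsa, Ctsd and Gla. Stretches of 30 bases around the core are shown for the 4 of these that rose in aged mice, 5′ to 3′ on the gene's strand, with the core in capitals:
Gla, chrX:134601215-134601244, minus strand: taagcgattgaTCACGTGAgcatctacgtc
Gla, chrX:134601182-134601211, minus strand: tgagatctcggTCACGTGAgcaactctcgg
Atp6v1a, chr16:44139373-44139402, minus strand: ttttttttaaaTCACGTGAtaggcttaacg
Ctsa, chr2:164833758-164833787, plus strand: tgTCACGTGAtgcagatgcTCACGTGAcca
Ctsd, chr7:142387908-142387937, minus strand: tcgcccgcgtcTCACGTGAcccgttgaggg
Positions are counted from the start that defines each window. The Gla cores begin 228 and 195 bases before it, and those of Atp6v1a and Ctsd 132 and 99 before. In Ctsa 1 lies 13 bases before and the other 4 after it. For Atp6v1a and Ctsa the start and the cores lie inside the gene's RefSeq span (chr16:44085402-44139702 and chr2:164832872-164841032), not before the gene. In GENCODE M21 both Ctsa cores and the Ctsd core overlap an annotated exon of the gene, and the others do not. Of the 6 genes with the core, 4 rose in aged mice (median log2 1.34); of the 6 with the E-box alone, 3 (median 0.92); of the 20 with neither, 14 (median 1.24). A match is a description of letters in this window and not a binding site. The CLEAR element is known from lysosomal genes, so its share among the members beside all genes is a description and no test.

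Within the V0 sector 4 of 6 genes rose in aged mice (median log2 0.87). The steepest was Atp6v0d2, an alternative d subunit known from osteoclasts and macrophages. Atp6v0d2 read 4.43, 4.88 and 6.05 CPM in adult controls, 1.75, 2.38 and 32.3 CPM after adult burn, 19.1, 2.20 and 7.98 CPM in aged controls and 200.5, 131 and 110.1 CPM after aged burn. All 3 burned aged libraries exceeded every other library, and Adult burn 3 stood above the other adults. The change in aged mice was 15.2-fold (log2 3.93 ± 0.77 SE, edgeR adjusted p = 0.0222), and without Aged control 1 its log2 was 4.84. In adults it was log2 1.23 ± 1.07 SE, edgeR adjusted p = 0.791, and the difference between ages did not pass (log2 2.68 ± 1.40 SE, edgeR adjusted p = 0.195).

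Its widely expressed counterpart is Atp6v0d1. Adult controls had 88.9, 131 and 130.1 CPM of Atp6v0d1 and burned adults 116, 128 and 134 CPM, while aged controls had 128, 130.1 and 135 CPM and burned aged mice 166, 203 and 128 CPM. Aged burn 3 lay within the aged controls, and the change did not pass (log2 0.35 ± 0.19 SE, edgeR adjusted p = 0.203). Per kilobase of exon, Atp6v0d2 made up 8.74%, 1.07% and 3.67% of both d subunit transcripts in aged controls and 43.6%, 29.3% and 35.5% in burned aged mice. In adults the share was 3.1%, 2.33% and 2.9% in controls and 0.96%, 1.18% and 13.4% after burn. The d subunit joins the rotor of V0 to the stalk of V1, so a pump carries either form.

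Atp6v0c encodes the proteolipid that forms the proton-carrying ring. In aged controls Atp6v0c was at 51.3, 53.7 and 54.6 CPM and in burned aged mice at 124, 163 and 79.5 CPM, beside 45.02, 53.8 and 49.95 CPM in the adult controls and 48.7, 57.4 and 55.9 CPM after adult burn. It rose 2.32-fold in aged mice (log2 1.21 ± 0.26 SE, edgeR adjusted p = 0.0279), with no overlap between burned and control libraries, and it was the 1 gene of V0 called in the difference (log2 1.09 ± 0.30 SE, edgeR adjusted p = 0.0422). Atp6v0a1, a form of the a subunit that anchors the complex, was higher in aged than adult mice even in controls, though not called there. For Atp6v0a1 the aged controls gave 152, 140.2 and 158 CPM and the burned aged mice 285, 196 and 237 CPM; in adults the controls gave 94.9, 122 and 86.4 CPM and the burned mice 92.3, 97.8 and 106 CPM. It rose 1.61-fold (log2 0.68 ± 0.17 SE, edgeR adjusted p = 0.0444). Atp6v0b, a further ring protein, rose 2.09-fold with an adjusted p of 0.049 by edgeR, and Atp6v0e did not pass (log2 0.33, adjusted p = 0.227).

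Of the V1 sector, 3 of 8 genes rose in aged mice (median log2 0.61), and these were parts of the catalytic head and its support. Atp6v1a encodes the catalytic A subunit. Atp6v1a read 80.3, 126 and 122 CPM in adult controls, 129.9, 119 and 149 CPM after adult burn, 118, 111 and 123 CPM in aged controls and 325, 329.9 and 217 CPM after aged burn. The burned aged libraries lay above all others, at 2.49 times the aged controls (log2 1.32 ± 0.20 SE, edgeR adjusted p = 0.0107). Atp6v1b2, its partner in the head, followed. Adult controls had 151, 170.2 and 176 CPM of Atp6v1b2 and burned adults 162, 179 and 231 CPM, while aged controls had 166, 160.1 and 172 CPM and burned aged mice 484, 409 and 274 CPM. Its change was 2.36-fold (log2 1.24 ± 0.23 SE, edgeR adjusted p = 0.0198). Both were called in the difference (log2 1.04 ± 0.29 SE, edgeR adjusted p = 0.0445 for Atp6v1a; log2 1.04 ± 0.29 SE, edgeR adjusted p = 0.0463 for Atp6v1b2).

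Atp6v1c1, a subunit involved in joining V1 to V0, read 68.6, 65.9 and 71.1 CPM in aged controls and 128, 137 and 93.0 CPM in burned aged mice. Its adult libraries lay at 52.4 to 81.4 CPM, and the aged burn response was 1.76-fold (log2 0.81 ± 0.17 SE, edgeR adjusted p = 0.0266). The stalk and regulatory subunits did not pass. Atp6v1e1 was at 183 ± 23.0 CPM in aged controls and 179 ± 9.44 CPM after burn (SD, n = 3; log2 -0.02 ± 0.14 SE, edgeR adjusted p = 0.921). Atp6v1h, which regulates ATP splitting, was at 104 ± 10.9 and 105 ± 10.9 CPM (SD, n = 3; log2 0.04 ± 0.14 SE, edgeR adjusted p = 0.856). Log2 fold changes of Atp6v1d, Atp6v1f and Atp6v1g1 were 0.37, 0.50 and 0.72, with adjusted p of 0.15, 0.165 and 0.194 by edgeR, and their groups overlapped. Across V1 the fitted log2 fold changes ran from -0.02 to 1.32.

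Of the accessory subunits, which help assemble the pump and are cut on its lumenal side, Atp6ap2 rose. In aged controls Atp6ap2 was at 58.8, 52.7 and 61.2 CPM and in burned aged mice at 128, 159 and 82.97 CPM, beside 55.9, 57.5 and 65.04 CPM in the adult controls and 54.1, 54.7 and 73.8 CPM after adult burn. Its change in aged mice was 2.16-fold (log2 1.11 ± 0.24 SE, edgeR adjusted p = 0.0299), and the difference passed (log2 1.08 ± 0.31 SE, edgeR adjusted p = 0.0460). Atp6ap1 read 160, 163 and 153 CPM in aged controls and 257, 281 and 189 CPM after burn. These groups did not overlap, but the test did not pass (log2 0.62 ± 0.18 SE, edgeR adjusted p = 0.0631). In adults Atp6ap1 was at 186 ± 8.82 CPM in controls and 179 ± 12.9 CPM after burn (SD, n = 3).

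Of the cathepsins 8 of 10 rose in aged mice, with a median log2 of 1.61, beside 8 of 16 and 0.70 for all V-ATPase members; the gap between these lists was not tested. Cathepsin S (Ctss), a protease of antigen-presenting cells that acts in making MHC class II peptides, had the largest fold change of the 40 with all libraries in the fit. For Ctss the aged controls gave 59.01, 18.3 and 51.6 CPM and the burned aged mice 723, 1218 and 354 CPM; in adults the controls gave 243, 58.5 and 145 CPM and the burned mice 44.5, 71.95 and 168 CPM. Aged burn 3 was the lowest burned aged library and still above every other group's. The change was 17.9-fold (log2 4.17 ± 0.65 SE, edgeR adjusted p = 0.0114). Atp6v0d2 had the larger log2 value without Aged burn 2 (4.01, against 3.66 for Ctss) and without Aged control 1 (4.84 against 4.44). In adults the direction of the means was the reverse, without passing (log2 -0.67 ± 0.65 SE, edgeR adjusted p = 0.801), and Adult control 1, the library with lymphocyte transcripts, was the highest control. The difference passed (log2 4.83 ± 0.99 SE, edgeR adjusted p = 0.0205), and it was log2 5.52 without Adult burn 3 and log2 4.27 (edgeR adjusted p = 0.0318) without Adult control 1.

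Cathepsins D and B were the most abundant proteases of the list. Cathepsin D (Ctsd), the main aspartic protease of lysosomes, is given for its abundance. Ctsd read 821, 1386 and 1550 CPM in adult controls, 1518, 1392 and 2161 CPM after adult burn, 1261, 984 and 1173 CPM in aged controls and 4890, 4627 and 2726 CPM after aged burn. It rose 3.61-fold in aged mice (log2 1.85 ± 0.35 SE, edgeR adjusted p = 0.0205), and Adult burn 3 was the highest adult library. Its difference between ages missed the threshold (log2 1.42 ± 0.46 SE, edgeR adjusted p = 0.0653). Cathepsin B (Ctsb), a cysteine protease, read 2184, 2031 and 2235 CPM in aged controls and 5694, 6025 and 3600 CPM after burn. The groups were apart, but its adjusted p was 0.0553 by edgeR (log2 1.26 ± 0.35 SE).

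Cathepsin L (Ctsl), a broad cysteine protease, was also abundant. Adult controls had 229.7, 373 and 425 CPM of Ctsl and burned adults 306, 331 and 675 CPM, while aged controls had 538, 374 and 709 CPM and burned aged mice 3234, 3470 and 1250 CPM. The rise in aged mice was 4.95-fold (log2 2.31 ± 0.48 SE, edgeR adjusted p = 0.0268), and the difference did not pass (log2 1.95 ± 0.64 SE, edgeR adjusted p = 0.0660). Cathepsin A (Ctsa), the carboxypeptidase that protects other lysosomal enzymes, lay between 154 and 180 CPM in both control groups. In aged controls Ctsa was at 174, 157 and 162 CPM and in burned aged mice at 434, 534 and 287 CPM, beside 167, 154 and 180.4 CPM in the adult controls and 116, 166 and 169 CPM after adult burn. It rose 2.57-fold (log2 1.36 ± 0.25 SE, edgeR adjusted p = 0.0186), with a called difference (log2 1.51 ± 0.32 SE, edgeR adjusted p = 0.0214). Cathepsin Z (Ctsz), a further carboxypeptidase, read 218, 209 and 243 CPM in aged controls and 597, 725 and 394 CPM after burn, 2.58-fold higher (log2 1.37 ± 0.26 SE, edgeR adjusted p = 0.0195).

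Cathepsin K (Ctsk), the collagen-cutting protease of osteoclasts, is also made by fibroblasts and macrophages. For Ctsk the aged controls gave 83.2, 57.4 and 74.8 CPM and the burned aged mice 187, 229.5 and 96.1 CPM; in adults the controls gave 52.9, 87.9 and 206 CPM and the burned mice 57.5, 101 and 96.7 CPM. Adult control 3 at 206 CPM exceeded Aged burn 1 and 3, so the burned aged mice did not stand apart from adults. Within aged mice it rose 2.4-fold with an adjusted p of 0.0483 by edgeR (log2 1.26 ± 0.33 SE), the highest of the 8 called cathepsins. Cathepsins C and H (Ctsc, Ctsh), aminopeptidases of myeloid and other cells, rose 5.43- and 5.24-fold. Both were highest in Aged burn 2 (756 and 439 CPM) and far lower in Aged burn 1 and 3 (280 and 158 CPM for Ctsc, 180 and 122 CPM for Ctsh). Without Aged burn 2 their log2 fold changes were 1.58 and 1.68, against 2.44 and 2.39 with it. Their differences between ages were log2 2.77 ± 0.74 SE, edgeR adjusted p = 0.0402 for Ctsc and log2 2.88 ± 0.62 SE, edgeR adjusted p = 0.0227 for Ctsh, and log2 1.90 (edgeR adjusted p = 0.0676) and 2.17 (edgeR adjusted p = 0.0326) without that library.

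Cathepsin F (Ctsf), a cysteine protease, was the 1 member whose burned aged libraries all lay below the aged controls. Ctsf read 28.9, 54.4 and 38.6 CPM in adult controls, 42.6, 53.02 and 39.1 CPM after adult burn, 70.5, 68.03 and 83.7 CPM in aged controls and 59.2, 25.1 and 66.2 CPM after aged burn. Aged burn 2 was far the lowest. The change did not pass (log2 -0.55 ± 0.35 SE, edgeR adjusted p = 0.265).

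Among glycosidases and sphingolipid proteins 6 of 7 rose in aged mice (median log2 1.60), and the same 6 were called in the difference. Gla, the alpha-galactosidase lost in Fabry disease, started low. Adult controls had 8.03, 9.66 and 7.85 CPM of Gla and burned adults 9.39, 7.48 and 16.1 CPM, while aged controls had 10.8, 8.13 and 10.6 CPM and burned aged mice 67.04, 88.3 and 36.9 CPM. The response was 6.55-fold in aged mice (log2 2.71 ± 0.34 SE, edgeR adjusted p = 0.00697) and 1.28-fold in adults (log2 0.36 ± 0.31 SE, edgeR adjusted p = 0.791); the difference passed (log2 2.34 ± 0.47 SE, edgeR adjusted p = 0.0197). Gusb, beta-glucuronidase, lay between 52.7 and 76.8 CPM in every library outside the burned aged group. In aged controls Gusb was at 70.2, 62.4 and 76.8 CPM and in burned aged mice at 255, 268 and 175 CPM, beside 66.5, 66.5 and 65.9 CPM in the adult controls and 52.7, 62.5 and 76.3 CPM after adult burn. It rose 3.36-fold (log2 1.75 ± 0.20 SE, edgeR adjusted p = 0.00620), with a difference of log2 1.81 ± 0.26 SE, edgeR adjusted p = 0.0169.

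Hexa, the alpha chain of beta-hexosaminidase, which degrades gangliosides, behaved likewise. For Hexa the aged controls gave 132, 116 and 136 CPM and the burned aged mice 416, 534 and 293 CPM; in adults the controls gave 147, 168 and 249 CPM and the burned mice 141, 213 and 208 CPM. Its rise was 3.27-fold (log2 1.71 ± 0.25 SE, edgeR adjusted p = 0.00966). Psap, the precursor of the saposins, read 1902, 1777 and 1723 CPM in aged controls and 6696, 5684 and 3851 CPM after burn, 3.03-fold higher (log2 1.60 ± 0.35 SE, edgeR adjusted p = 0.0311). Acid ceramidase (Asah1) and beta-galactosidase (Glb1) rose 2.45- and 1.97-fold. Gaa, which degrades glycogen in lysosomes, was the exception, at 119 ± 6.47 and 131 ± 28.2 CPM (SD, n = 3; log2 0.15 ± 0.18 SE, edgeR adjusted p = 0.559).

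**Figure D2:**
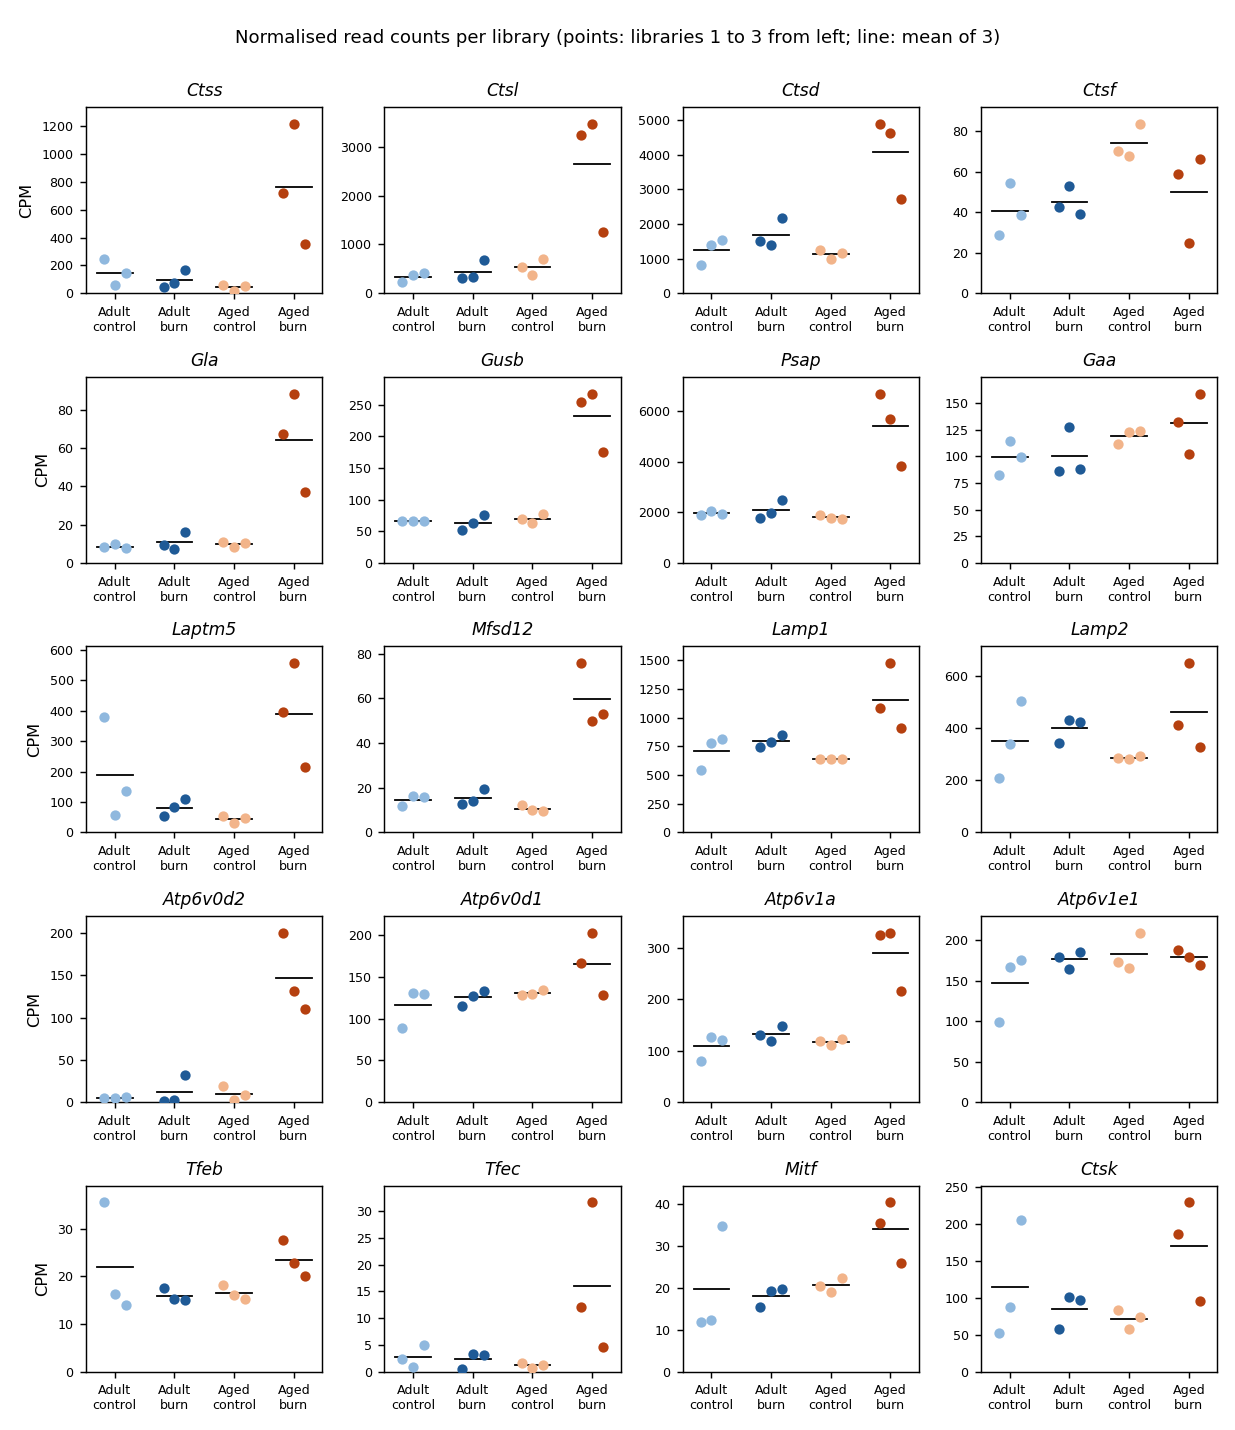
CPM in each of the 12 libraries (y axis, from 0; points are libraries 1 to 3 from left, the line is the mean of 3) for 20 of the 40 genes. Burned aged libraries stand above all others for Ctss, Gla, Gusb, Psap, Mfsd12 and Atp6v0d2, and overlap other groups for Gaa, Atp6v1e1 and Lamp2.

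Of the membrane proteins, 2 of 4 rose in aged mice. Laptm5, a lysosomal membrane protein of blood cells, was 8.74-fold higher. Laptm5 read 379, 55.98 and 135 CPM in adult controls, 52.8, 83.6 and 109 CPM after adult burn, 55.1, 32.1 and 47.4 CPM in aged controls and 396, 556 and 215 CPM after aged burn. Adult control 1, with its lymphocyte transcripts, was within the range of the burned aged libraries. The fits gave log2 3.13 ± 0.41 SE, edgeR adjusted p = 0.00764 in aged mice, log2 -1.24 ± 0.68 SE, edgeR adjusted p = 0.788 in adults and log2 4.35 ± 0.87 SE, edgeR adjusted p = 0.0193 for the difference; without Adult control 1 the last was log2 3.36 (edgeR adjusted p = 0.0235). Mfsd12, which carries cysteine into lysosomes and melanosomes, had the smallest adjusted p of the 40. Adult controls had 11.98, 16.2 and 15.9 CPM of Mfsd12 and burned adults 12.8, 13.9 and 19.3 CPM, while aged controls had 12.3, 10.1 and 9.79 CPM and burned aged mice 75.7, 49.9 and 53.01 CPM. The change was 5.6-fold (log2 2.48 ± 0.21 SE, edgeR adjusted p = 0.00516).

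Lamp1 and Lamp2, the abundant glycoproteins that line the lysosomal membrane, did not pass. In aged controls Lamp1 was at 638, 642 and 639.9 CPM and in burned aged mice at 1087, 1473 and 909.9 CPM, beside 544, 776 and 817 CPM in the adult controls and 746, 791 and 848 CPM after adult burn. Its burned aged libraries lay above every other library (log2 0.87 ± 0.25 SE, edgeR adjusted p = 0.0589). For Lamp2 the aged controls gave 284, 279.9 and 292 CPM and the burned aged mice 411, 648 and 328 CPM; in adults the controls gave 209, 337 and 501 CPM and the burned mice 341, 431 and 424 CPM. Burned aged libraries lay above aged controls here too (log2 0.71 ± 0.27 SE, edgeR adjusted p = 0.112), but Adult control 3 exceeded Aged burn 1 and 3. The fold changes of Lamp1 and Lamp2, 1.82 and 1.63 in aged mice, were under the members' median.

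The TFEB family was at low level. Tfec, a relative made mainly by macrophages and osteoclasts, rose 13.9-fold in aged mice. Tfec read 2.45, 0.943 and 4.94 CPM in adult controls, 0.557, 3.27 and 3.19 CPM after adult burn, 1.56, 0.769 and 1.19 CPM in aged controls and 12.1, 31.6 and 4.56 CPM after aged burn. Aged burn 2 was far the highest, and Aged burn 3 lay below Adult control 3 at 4.94 CPM. The test gave log2 3.80 ± 0.75 SE, edgeR adjusted p = 0.0229 in aged mice and log2 4.04 ± 1.17 SE, edgeR adjusted p = 0.0488 for the difference. Without Aged burn 2 these log2 values were 2.85 and 3.09 (edgeR adjusted p = 0.110), and without Adult control 3 the difference was 3.33 (edgeR adjusted p = 0.0745). Tfeb itself did not pass. Adult controls had 35.5, 16.2 and 13.9 CPM of Tfeb and burned adults 17.5, 15.3 and 15.1 CPM, while aged controls had 18.1, 16.1 and 15.3 CPM and burned aged mice 27.7, 22.8 and 20.02 CPM. The 3 burned aged libraries were above the aged controls and below Adult control 1 (log2 0.52 ± 0.16 SE, edgeR adjusted p = 0.0720). Mitf, best known from melanocytes, osteoclasts and mast cells, rose 1.66-fold. In aged controls Mitf was at 20.5, 19.1 and 22.3 CPM and in burned aged mice at 35.5, 40.4 and 25.99 CPM, beside 11.9, 12.3 and 34.7 CPM in the adult controls and 15.4, 19.1 and 19.7 CPM after adult burn. Adult control 3 lay within the range of the burned aged libraries (log2 0.73 ± 0.18 SE, edgeR adjusted p = 0.0444; difference log2 0.85 ± 0.52 SE, edgeR adjusted p = 0.258).

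Levels can be compared between genes per kilobase of exon (GENCODE M21). Psap, Ctsd and Ctsb held ranks 1, 2 and 3 in both aged groups, at 656 ± 33.5, 536 ± 66.4 and 453 ± 22.4 CPM per kilobase in controls and 1972 ± 526, 1919 ± 555 and 1077 ± 277 after burn (SD, n = 3). Every Psap value lay above every Ctsd value in aged controls, whereas their ranges overlapped after burn. Ctss moved from rank 24 to rank 4 and Atp6v0d2 from 37 to 27. The 3 TFEB family genes took the last 3 ranks of the 40 in burned aged mice. Of the CPM summed over the 40 genes, Psap, Ctsd and Ctsb made up 19.2%, 12.2% and 22.9% in aged controls and 20.9%, 15.8% and 19.8% after burn.

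Aged and adult controls were compared to ask whether the genes differed before burn. By edgeR 0 of 40 were called, with 5 at an unadjusted p under 0.05: Atp6v0a1 and Ctsf higher in aged mice, and Ctsh, Ctss and Laptm5 lower. At that level 1732 of all 15553 genes were higher and 2359 lower, a larger share than among the members. Of all genes edgeR called 0.238% higher and 0.186% lower. DESeq2 called 1 member higher and 3 lower, beside 989 higher and 1195 lower among all 15553 genes. The members' median was -0.07, against -0.06 for all genes.

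Between burned mice, 24 of 40 genes were higher in aged than in adult mice and 0 lower, while 15.2% of all genes were higher and 11.1% lower. The median was 1.09, against 0.07 for all genes. The largest were Atp6v0d2 (12.1-fold), Ctss (8.05-fold), Tfec (6.88-fold), Ctsl (6.05-fold) and Gla (5.82-fold). Ctsb was called here (log2 1.19 ± 0.30 SE, edgeR adjusted p = 0.0165) and not in the aged burn comparison. Atp6v0b, Ctsk and Mitf were called there and not here. Without Adult burn 3 the log2 value was 6.15 for Atp6v0d2 (3.60 with it) and 3.71 for Ctss (3.01). Without Aged burn 2, Tfec, Ctsc and Ctsh were no longer called, at 1.83 (edgeR adjusted p = 0.137), 0.84 (edgeR adjusted p = 0.170) and 0.82 (edgeR adjusted p = 0.108) on the log2 scale. The count was 15 without Adult burn 1 and 16 without Adult burn 2. All-gene calls were then 989 higher and 851 lower, and 1181 and 1054, against 2366 and 1727 with all libraries. These comparisons share libraries with the 2 burn comparisons.

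Further lysosomal genes, from lists of the pathway outside the 40, gave 35 of 114 tested up and 3 down in aged burned mice (median log2 0.29), beside 13.7% and 3.03% of all genes; the gap to the 40 was not tested. Other V-ATPase subunits gave 1 up of 5, Tcirg1, the a3 subunit of osteoclast and macrophage lysosomes, from 28.7 to 185 CPM (log2 2.70 ± 0.26 SE, edgeR adjusted p = 0.00565). Other proteases gave 5 up and 1 down of 7. Lgmn, the asparaginyl endopeptidase that trims cathepsins, read 83.7, 47.3 and 75.5 CPM in aged controls and 980, 1560 and 405 CPM after burn (log2 3.85 ± 0.55 SE, edgeR adjusted p = 0.00946). Prcp, a carboxypeptidase, rose with log2 2.31, while Ctso fell by 0.39 on the log2 scale.

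Other hydrolases gave 13 up and 1 down of 30. Lipa, the acid lipase that frees fatty acids and cholesterol from lipid esters, read 91.9, 65.6 and 75.7 CPM in aged controls and 733, 503 and 352 CPM after burn (log2 2.78 ± 0.32 SE, edgeR adjusted p = 0.00620). Pla2g15, a lysosomal phospholipase, rose with log2 1.19. Acp5, tartrate-resistant acid phosphatase, went the other way, from 675, 648 and 542 CPM to 358, 163 and 297 CPM (log2 -1.18 ± 0.31 SE, edgeR adjusted p = 0.0478).

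Of other membrane and transport proteins 11 of 26 rose and 0 fell. Cd68, a macrophage glycoprotein of late endosomes, read 42.6, 16.1 and 32.3 CPM in aged controls and 554, 593 and 287 CPM after burn (log2 3.99 ± 0.48 SE, edgeR adjusted p = 0.00635). Npc1, which moves cholesterol out of lysosomes, rose with log2 1.60. Mannose 6-phosphate tagging and sorting, the route by which new hydrolases reach the lysosome, gave 3 up of 9: Nagpa (log2 0.99), the receptor gene Igf2r (1.01) and Gga3 (0.99).

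Lists of lysosomal control and autophagy were also counted. Nutrient sensing and TFEB control gave 2 up of 17, Fnip2 (log2 2.11) and Rragd (1.85), with a median of 0.20. That share was no larger than the 13.7% up among all 15132 genes, whose median was -0.01. Tfe3, the fourth gene of the TFEB family, stood just outside the threshold (log2 0.78 ± 0.21 SE, edgeR adjusted p = 0.0523). Of 20 autophagy genes 0 rose and 1 fell, Bnip3, a mitophagy receptor, by 0.94 on the log2 scale (edgeR adjusted p = 0.022). At an unadjusted p under 0.05, 1 was higher and 3 lower, beside 3564 higher and 2262 lower of all 15132 genes. The autophagy cargo receptor Sqstm1 was at 359 and 345 CPM on average (log2 -0.05, adjusted p = 0.844). In adults 0 of 113 tested genes of these lists were called by edgeR, with 2 up and 1 down at an unadjusted p under 0.05. All 14600 genes gave 408 up and 230 down at that level.

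Levels of cell type markers were set beside those of the lysosomal genes. Of all 15132 genes tested in aged mice, 13.7% rose and 3.03% fell. In aged mice 10 of 12 macrophage markers rose, and their sum went from 420 to 654 CPM in controls to 1915 to 6985 CPM after burn; C1qb, a complement gene of tissue macrophages and their most abundant marker, went from 55.8 to 96.7 CPM to 304 to 1194 CPM. No macrophage marker was at 0 in burned aged mice. The same sum was 708 to 1855 CPM in untreated and 700 to 1450 CPM in burned adults. Dividing cell markers, led by Mki67, summed to 5.1 to 10.1 CPM in aged controls and 182 to 368 CPM after burn, and 6 of 6 rose. Adipocyte markers summed to 43970 to 50580 CPM in aged controls and 10050 to 27560 CPM after burn, with 0 of 9 called by edgeR. At an unadjusted p under 0.05, 4 were lower, beside 2262 of all 15132 genes. The part of these shifts in the rise of lysosomal genes was not tested.

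Among burned aged libraries, Aged burn 2 was highest for 29 of the 40 genes and for the macrophage sum, and lowest for the adipocyte sum. Aged burn 3 was lowest for 36 of the 40 and had the smallest macrophage sum. Aged burn 1 was highest for 9, among them Atp6v0d2, Ctsd, Psap and Mfsd12. The neutrophil marker sum was 1711 CPM in Aged burn 2, 29.6 and 24.1 CPM in Aged burn 1 and 3, and 5.18 to 7.98 CPM in aged controls. It was led in Aged burn 2 by S100a9 (882 CPM against 5.37 and 3.78) and S100a8 (558 CPM against 5.50 and 4.68). Of the 12 markers 5, Mpo, Elane, Camp, Ltf and Ngp, were under 1 CPM in every burned aged library. Of 6 tested in aged mice, 2 were called up, Csf3r and Mmp8. Without Aged burn 2, 28 members were called in aged mice with a median log2 of 0.97. Of all 15325 genes, 2283 were then called higher and 982 lower. In adults, Adult burn 3 was highest of its group for 30 of the 40 genes, while its macrophage sum of 1234 CPM was below the 1450 CPM of Adult burn 2. Its dividing cell sum was 59.5 CPM, against 13.96 and 15.01 CPM in the other burned adults.

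Other cells that share lysosomal genes were checked in the same way. Of 5 markers of osteoclasts or fused macrophages, 3 were tested in aged mice and 2 rose: the cell fusion genes Dcstamp (0.286 to 2.57 CPM on average, edgeR adjusted p = 0.0170) and Ocstamp (0.250 to 1.20 CPM, edgeR adjusted p = 0.0408). Dcstamp was also called in the difference (log2 3.55, edgeR adjusted p = 0.0434). Calcr and Oscar were under 1 CPM in every burned aged library, and the list summed to 13.8 to 23.98 CPM in aged controls and to 32.1 to 128 CPM there, nearly all Mmp9 (28.8 to 125 CPM). Melanocyte markers summed to 1.98 to 2.85 CPM in burned aged mice, with Tyrp1 at 0, and keratinocyte markers to 2.04 to 2.42 CPM, with 4 of 6 at 0. Fibroblast markers, led by Col3a1, summed to 2780 to 3552 CPM in aged controls and 4257 to 13250 CPM after burn, with 1 of 8 called. Mast cell markers were at 63.8 to 86.5 and 78.0 to 242 CPM, dendritic cell markers at 19.0 to 29.8 and 23.8 to 31.5 CPM, and endothelial markers at 337 to 449 and 330 to 520 CPM, in the same order. B cell markers summed to 2.72 to 4.22 CPM in aged controls and 7.25 to 21.3 CPM after burn, with 2 of 7 called up. T cell markers summed to 8.57 to 13.5 and 7.67 to 18.5 CPM with 0 of 8 called. At an unadjusted p under 0.05, 1 T cell marker was higher, beside 3564 of all 15132 genes. Muscle markers summed to 9.40 to 61.2 and 35.0 to 387 CPM, in the same order, with 1 of 7 tested called up. The part of these cells in the results was not tested.

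**Figure D3:**
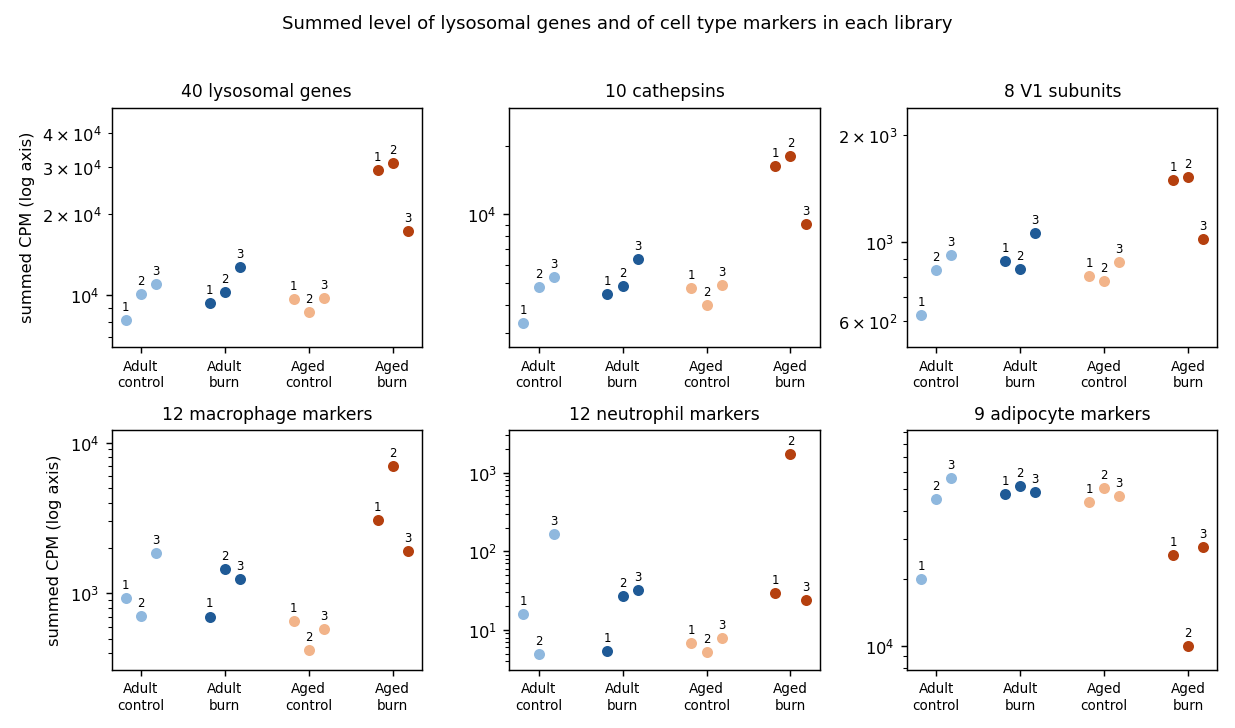
Summed CPM in each library (y axis, log scale; numbers are library numbers, colours the 4 groups) for the 40 lysosomal genes, the cathepsins, the V1 subunits and 3 lists of cell type markers. The 40 genes sum to 17400 to 30980 CPM in burned aged libraries and to 8107 to 12770 CPM elsewhere; macrophage markers are highest and adipocyte markers lowest in Aged burn 2.

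**Figure D4:**
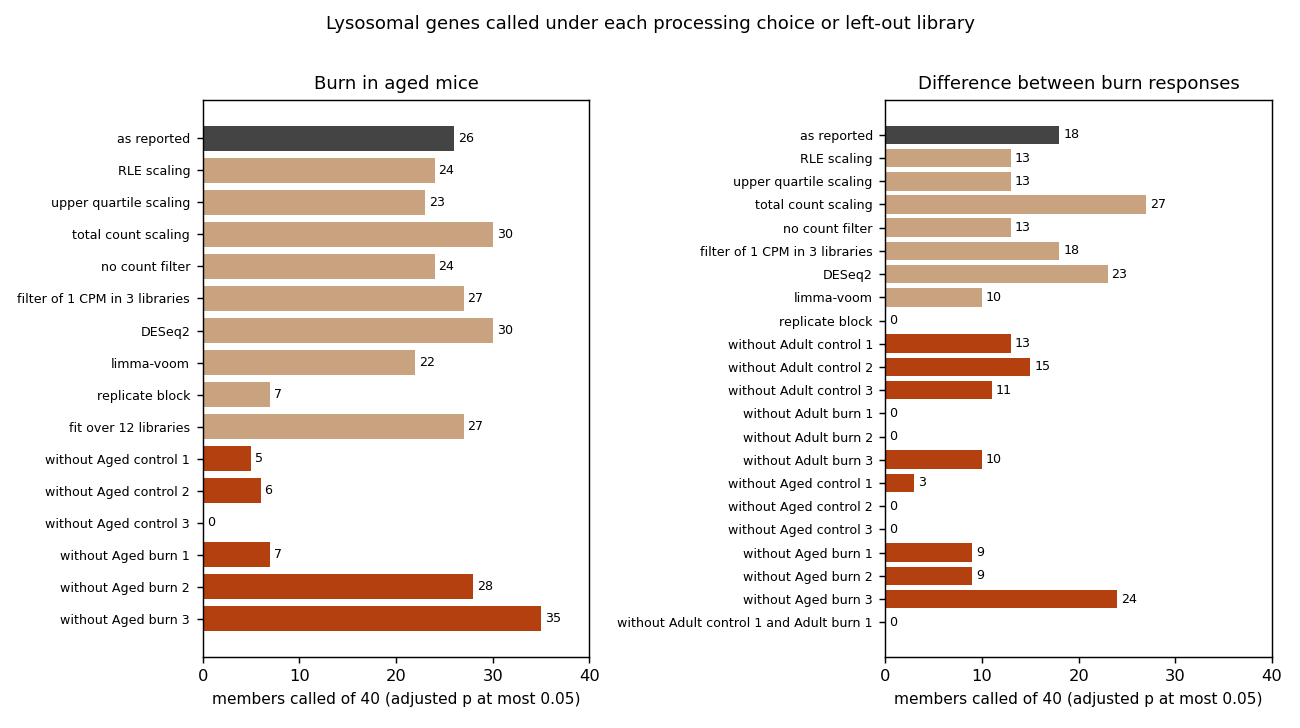
Number of the 40 genes called (x axis, edgeR unless another tool is named) for burn in aged mice (left) and the difference between burn responses (right). Bars show each processing choice or the pair Adult control 1 and Adult burn 1 left out (tan), and 1 library left out (orange). The dark bar is the count as reported. Counts are 26 and 18 as reported and reach 0 in both panels where Aged control 3 is left out. On the right they are also 0 without Adult burn 1, Adult burn 2 or Aged control 2, with the replicate block and without the pair. In the fits with 0 members no gene at all was called.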

How the data were processed

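Polyadenylated RNA of adipose tissue was sequenced from a directional kit, per the labels' protocols. The authors deposited raw gene counts in 1 table per age; per the submitters' processing notes, FastQC, MultiQC, cutadapt, HISAT2 and featureCounts were used on mm10. The sources used here give no versions, no annotation and no strand setting, so overlapping genes may share reads. Symbols were matched by Entrez identifier to RefSeq (GRCm38.p6; 25275 of 27179). The tests were edgeR's (4.0.16, in R 4.3.3): genes passing filterByExpr, TMM factors, quasi-likelihood F tests, Benjamini-Hochberg adjustment over all genes, threshold 0.05. Each burn test used the 6 libraries of 1 age; the difference and the comparisons between ages used 1 mean per group over 12 libraries. A standard error is the fold change (absolute log2) over the square root of F. CPM were scaled over the 12 libraries; exon lengths are unions over GENCODE M21.

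The members, gene lists and rules were chosen with earlier results of these data known. Values per library are given for the 3 members of each role with the smallest adjusted p for burn in aged mice (or all of a smaller group), for 10 genes named whatever their outcome, and for Ctsd, Ctsb and Psap, added for abundance. Up to 2 called genes are named per further list; other names there were chosen after their values were seen. Alternatives were other scalings and filters, DESeq2 1.42.0, limma-voom (limma 3.58.1), a replicate block, other library sets and each library left out. The steps were tested on simulated counts. A comparison of the members' proteins was planned and is not reported here.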

Additional observations from a re-analysis of the deposited data

Results flagged for a closer look

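The burn response differed between aged and adult mice for 18 of the 40 genes by the interaction test of edgeR (adjusted p at most 0.05), each with the larger response in aged mice. Among all 15553 genes 9.64% had a larger and 2.22% a smaller response in aged mice by the same test. Values are aged minus adult on the log2 scale. In the proton pump the differences were 1.09 for Atp6v0c, 1.04 for Atp6v1a, 1.04 for Atp6v1b2 and 1.08 for Atp6ap2. The cathepsins were 4.83 for Ctss, 2.88 for Ctsh, 2.77 for Ctsc, 1.51 for Ctsa and 1.25 for Ctsz. Glycosidases and sphingolipid proteins were 2.34 for Gla, 1.81 for Gusb, 1.71 for Hexa, 1.51 for Psap, 1.30 for Asah1 and 1.06 for Glb1. The membrane proteins Laptm5 and Mfsd12 were at 4.35 and 2.42, and the transcription factor gene Tfec at 4.04. Of 21 alternatives, Ctss, Gusb and Mfsd12 were called in 15, and Atp6v0c and Atp6v1b2 in 4. No gene at all was called without Adult burn 1, Adult burn 2, Aged control 2 or Aged control 3. The same held with the replicate number as a block and without Adult control 1 and Adult burn 1 together. Age cannot be told apart from burn size and from the table of counts in these differences.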

How the results depend on the processing

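No member reversed its direction where it was called. In adult mice 0 members were called under every alternative run. Leaving out 1 library gave 0 to 35 members called for burn in aged mice (26 with all), 0 to 24 for the difference between burn responses (18), 0 to 3 between controls (0) and 15 to 28 between burned mice (24). The 3 between controls came without Adult control 2, where 760 of all 15951 genes were higher and 1251 lower. The 35, 24 and 28 members came without Aged burn 3. All-gene calls were then 3607 up and 2136 down for burn in aged mice, and 2592 larger and 1447 smaller for the difference. Between burned mice they were 2884 higher and 1966 lower. The 15 members came without Adult burn 1, beside 989 genes higher and 851 lower. Where leaving out 1 library gave 0 for burn in aged mice or for the difference, no gene at all was called. limma-voom gave 10 for the difference, beside 646 larger and 187 smaller among all 15553 genes. DESeq2 gave 4 between controls, beside 989 higher and 1195 lower among all genes. Without Adult control 1 and Adult burn 1 together the difference gave 0, and no gene at all was called. There 27 members and 3450 of 15703 genes had an unadjusted p under 0.05. The cause of these moves was not tested.

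Correlations of same-numbered deviations were 0.014, -0.001 and 0.251 in adults and -0.12, -0.213 and -0.064 in aged mice. They rest on deviations from means of 3 libraries and cannot show whether the libraries were paired. With the replicate number as a block, 7 members were called for burn in aged mice, beside 862 genes up and 55 down of 15132. For the difference 0 members were called, and no gene at all. There 27 members and 4480 of 15553 genes had an unadjusted p under 0.05. The members' medians were 1.17 and 1.02.

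Total-count scaling moved the median of all genes from 0.05 to 0.37 for the difference and from 0.07 to 0.33 between burned mice. All-gene calls were then 2675 larger and 169 smaller in place of 1500 and 345 for the difference, and 3610 higher and 1031 lower in place of 2366 and 1727 between burned mice. Atp6v0d2 and Tfec had the widest standard errors for burn in aged mice, 0.77 and 0.75 on the log2 scale.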

Other observations

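The largest changes among further lysosomal membrane genes in aged mice were in genes known from macrophages, named here after their values were seen. Gpnmb, a glycoprotein of lipid-laden macrophages, read 155, 36.6 and 60.3 CPM in aged controls and 2038, 1668 and 919 CPM after burn. By edgeR its log2 fold change was 4.21 (adjusted p = 0.0115), and the difference between ages had an adjusted p of 0.0583. Mcoln2, a lysosomal cation channel, Slc15a3, a peptide transporter, and Slc11a1, a metal ion transporter, rose with log2 4.28, 4.19 and 3.03. All 3 were highest in Aged burn 2. Of 114 further pathway genes tested, 30 had a called difference between ages, each larger in aged mice, beside 9.64% larger and 2.22% smaller among all genes.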
